A study of Mus musculus with 16 samples.

Results

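The genes described here are 8 genes of the B cell receptor and of B cell identity: Cd79a, Cd79b, Blnk, Btk, Cd22, Ms4a1, Fcer2a and Pax5. They are defined by gene name among 23179 genes measured in mouse mammary adipose tissue, and all 8 passed the filter on low values. Total RNA of the mammary fat pad opposite the tumor was sequenced in 16 libraries, 4 in each of 4 groups of female C57BL/6NCrl mice bought at 8 weeks of age. CON-LFD mice ate a low-fat diet (10% kcal fat) throughout and had a sham operation. The other 3 groups first ate a high-fat diet (60% kcal fat) for 15 weeks. DIO-HFD mice then stayed on it after a sham operation, DIO-LFD mice went to the low-fat diet after a sham operation, and DIO-VSG mice went to the low-fat diet after vertical sleeve gastrectomy, the removal of most of the outer stomach. Every mouse was wild type and received E0771 cells, a mouse mammary cancer line, in the fourth mammary fat pad 7 weeks after surgery, and tissue was taken 4 weeks later. No group was therefore free of surgery or of a tumor.

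B cells sense antigen with a membrane immunoglobulin that cannot signal alone. It pairs with the Cd79a and Cd79b chains, whose tails are phosphorylated by Lyn and bind Syk, and the adaptor Blnk then brings Btk to phospholipase C gamma. Cd22 recruits phosphatases that dampen this signal, Ms4a1 encodes CD20, Fcer2a encodes the low-affinity IgE receptor CD23, and Pax5 is the transcription factor that holds cells to the B lineage. In adipose tissue B cells lie scattered, in small lymphoid clusters and in the lymph node that sits within the mouse inguinal fat pad. Removal of that node was not described in the methods.

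Promoter stretches are shown for a receptor chain, the inhibitory lectin and the adaptor, each as an example of a motif found. They came from a table of RefSeq promoters on GRCm38.p6, in which 6 of the 8 members were matched. Windows of 250 bases before the RefSeq start site were searched on both strands for 4 motifs of B cell regulators. Capitals mark the match in each stretch, written 5′ to 3′ on the strand of the gene. The first holds an E-box (CAGGTG), the second the EBF motif CCCNNGGG and the third an octamer (ATTTGCAT).
Cd79a, chr7:24897247-24897380, plus strand: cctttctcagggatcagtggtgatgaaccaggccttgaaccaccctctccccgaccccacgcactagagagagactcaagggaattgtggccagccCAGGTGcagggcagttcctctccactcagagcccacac
Cd22, chr7:30879029-30879176, minus strand: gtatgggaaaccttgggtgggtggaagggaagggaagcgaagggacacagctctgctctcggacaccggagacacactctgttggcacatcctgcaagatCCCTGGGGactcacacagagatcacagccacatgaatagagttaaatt
Blnk, chr19:40994334-40994361, minus strand: actggaagggATTTGCATgcccaataag

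The E-box occurred in 4 of the 6 members with an entry (Cd79a, Cd22, Fcer2a and Blnk) and in 17.2% of 32851 promoters of the same length. The EBF motif occurred in Cd22 alone among the members and in 11.8% of promoters. The octamer occurred in Blnk alone, 130 bases before its RefSeq start site, and in 1.6% of promoters. An ETS motif (AGGAAGT) occurred in Cd79a and Blnk and in 7.69% of promoters. The RefSeq start site used lies downstream of the start of the gene in GENCODE, by 116 bases for Cd79a, 314 for Blnk and 1314 for Cd22, so that the stretches of Blnk and Cd22 lie within the GENCODE gene. Fcer2a has several annotated start sites and so had more than 1 window, and these matches are letters in a window, not shown binding.

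Libraries held 46907377 to 57610899 reads, so even the lowest value of a member, 19 reads of Fcer2a, stood above the floor of 3 reads. Values below are normalized counts, read counts divided by a factor for each library that ranged from 0.9036 to 1.2204. The defining adipocyte marker Adipoq stood at 30428 to 123530 over the libraries, whereas the labels' entries for cell line and cell type describe the injected tumor. CON-LFD replicates 2 and 4 and DIO-HFD replicates 2 and 3 stood apart, with little RNA of lymphoid cells. In these, the summed level of 22 T cell markers was 2559 to 5133, against 18517 to 100299 in the other libraries. The lymph node vessel gene Glycam1 was 7.42 and 114 in CON-LFD replicates 2 and 4 and 1650 and 54.6 in DIO-HFD replicates 2 and 3. Because the libraries are of bulk tissue, fewer B cells and less RNA per B cell cannot be told apart.

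Cd79a and Cd79b, the signaling chains of the receptor, were high in all DIO-VSG libraries, intermediate in all DIO-LFD libraries and spread from near nothing to very high in the other groups. Cd79a measured 3438, 39.2, 11443 and 172 in CON-LFD replicates 1 to 4 and 15257, 541, 97.1 and 9376 in DIO-HFD. It measured 2998, 5993, 6020 and 5380 in DIO-LFD and 13012, 10396, 12805 and 10874 in DIO-VSG. Cd79a in each DIO-VSG library was thus above all DIO-LFD libraries, but DIO-HFD replicate 1 exceeded every DIO-VSG library. Cd79b measured 2126, 60.4, 7401 and 596 in CON-LFD and 10943, 438, 105 and 6764 in DIO-HFD. It measured 1987, 4165, 4318 and 3917 in DIO-LFD and 8984, 7999, 8488 and 8144 in DIO-VSG. For Cd79b the DIO-VSG values lay above all 4 CON-LFD values as well, the only member for which that held.

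Blnk and Btk, the adaptor and the kinase below the receptor, had the smallest spread of the 8 genes. Both are known outside B cells too, Btk in myeloid cells and Blnk in macrophages. Blnk measured 1075, 197, 3137 and 2509 in CON-LFD and 4193, 606, 467 and 2433 in DIO-HFD. It measured 1010, 1770, 1651 and 1399 in DIO-LFD and 3061, 2902, 2913 and 2504 in DIO-VSG. CON-LFD replicate 4, which was among the 4 lowest libraries for the other members except Btk, stood level with the DIO-VSG libraries for Blnk. Btk measured 681, 142, 2246 and 930 in CON-LFD and 2849, 421, 292 and 1862 in DIO-HFD. It measured 686, 1176, 1220 and 1112 in DIO-LFD and 2248, 2294, 2212 and 1979 in DIO-VSG. Its highest library was 20.1 times its lowest, and that of Blnk 21.3 times, against 181 to 554 times for the other members.

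Cd22, the inhibitory lectin, measured 3438, 64.7, 12865 and 195 in CON-LFD and 16800, 564, 129 and 11027 in DIO-HFD. It measured 3025, 7080, 6439 and 5876 in DIO-LFD and 12483, 12778, 12511 and 10416 in DIO-VSG. Its 4 lowest libraries were those of Cd79a, in the same order, and all DIO-VSG values lay above all DIO-LFD values. Its annotated exons share 479 bases with the antisense gene Gm29439, and a stranded kit was used, but whether counting used the strand was not given. Gm29439 was far lower, at 0 to 540 normalized counts per library.

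Ms4a1 (CD20) measured 1893, 28.6, 9711 and 89.4 in CON-LFD and 12252, 391, 60 and 6724 in DIO-HFD. It measured 2117, 4874, 4234 and 3635 in DIO-LFD and 8794, 7756, 9233 and 7512 in DIO-VSG. The lowest and the highest library differed 428 times. Fcer2a (CD23), which marks follicular B cells, measured 2208, 20.1, 6136 and 93.5 in CON-LFD and 8129, 268, 54.6 and 5622 in DIO-HFD. It measured 1078, 3184, 3617 and 3816 in DIO-LFD and 6915, 5424, 6845 and 6256 in DIO-VSG. For both genes the DIO-VSG libraries lay above all DIO-LFD libraries and below DIO-HFD replicate 1.

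Pax5, the lineage factor, measured 3381, 29.7, 11966 and 150 in CON-LFD and 16436, 513, 501 and 10214 in DIO-HFD. It measured 2935, 6488, 5731 and 5330 in DIO-LFD and 12029, 11573, 11942 and 10415 in DIO-VSG. Its range over the 16 libraries was the widest of the members, 554 times. DIO-HFD replicate 3 broke the order seen for the other genes: it was second lowest for each of the other 7 members but held as much Pax5 as DIO-HFD replicate 2.

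**Figure D1:**
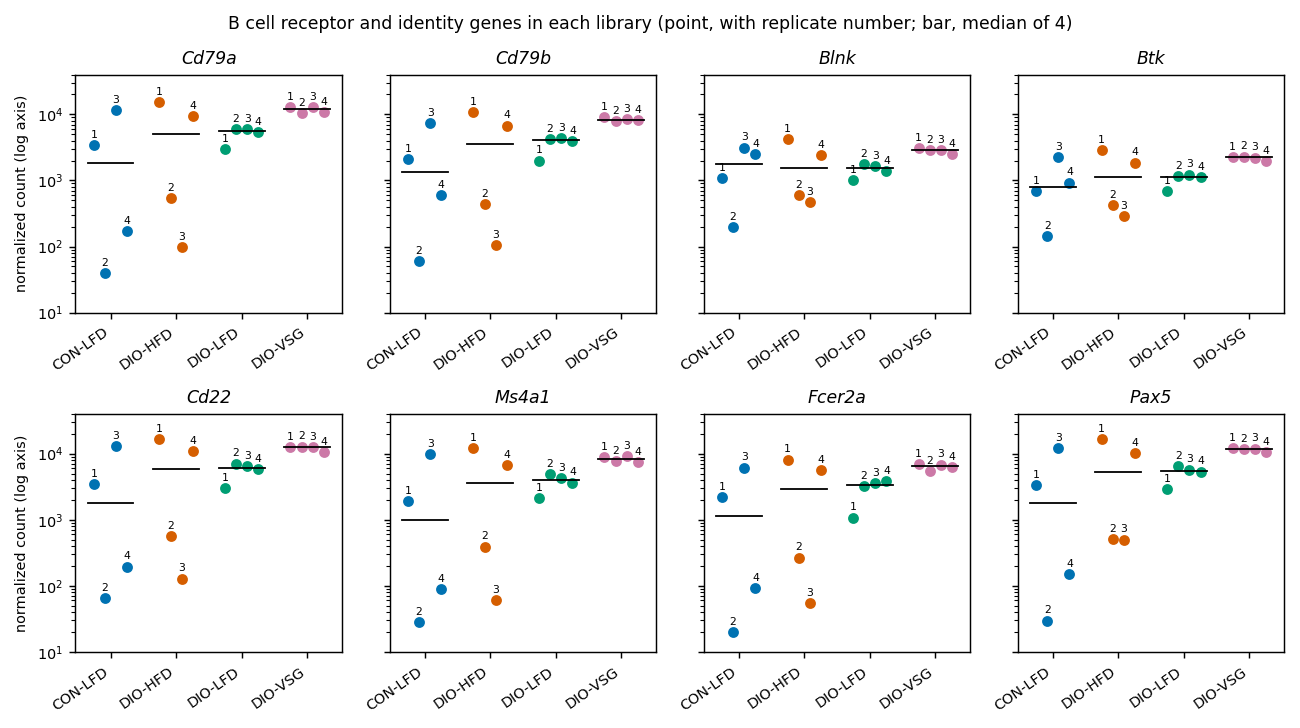
Normalized count (log axis) of each of the 8 genes in the 16 libraries, by group; points carry the replicate number and bars are the median of 4. DIO-VSG points lie close together above all DIO-LFD points, while CON-LFD and DIO-HFD points run from 39.2 to 11443 and from 97.1 to 15257 for Cd79a.

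The lowest library was CON-LFD replicate 2 and the highest DIO-HFD replicate 1 for all 8 members. For 6 of the 8 members, those lowest in rank were the same 4 libraries, CON-LFD replicates 2 and 4 and DIO-HFD replicates 2 and 3. The SD on the log2(normalized count + 1) scale was 2.71 to 3.97 in CON-LFD and DIO-HFD for 6 members and 1.53 to 1.81 for Blnk and Btk. In DIO-LFD it was 0.36 to 0.86 and in DIO-VSG 0.07 to 0.16 over the 8 members (n = 4 per group). Within DIO-VSG the highest library exceeded the lowest by no more than 1.28 times, for Fcer2a. The fit of all groups used 1 spread per gene.

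In 6 comparisons between groups, 0 of 8 members passed an adjusted P value of 0.05 (limma-trend, Benjamini-Hochberg over 21218 genes), and limma-voom on recovered reads also called 0 of 8 in each. Few genes of any kind passed. DIO-HFD against CON-LFD addressed obesity, and there 0.0377% of all genes passed. Means were 6318 ± 7333 (SD, n = 4) against 3773 ± 5349 normalized counts for Cd79a, a log2 difference of 1.20 (SE 1.67, 95% confidence interval -2.38 to 4.78). Differences of the other members ran from 0.20 for Blnk to 1.96 for Pax5 on the log2 scale, with limma adjusted P values of 0.643 to 0.936. No member had an unadjusted P value under 0.05 (0 of 8, against 12.9% of all genes), and the groups overlapped for all 8, where 4.76% of all genes did not overlap. Without CON-LFD replicate 3, Pax5 alone was higher and below 0.05 before adjustment, as were 8.86% of all genes. Without CON-LFD replicate 2 the sign turned for 7 members, for example to -0.19 for Cd79a and -0.63 for Cd79b, although for Ms4a1 only to -0.00018. It also turned for Cd79b and Blnk without DIO-HFD replicate 1 or replicate 4 and for Btk without DIO-HFD replicate 1, while Pax5 kept it, at a lowest leave-one-out value of 0.49. With a weight for each library, which gave DIO-HFD replicate 4 the weight 10.9, differences were 1.08 to 2.79. All 8 members were then higher at an unadjusted P value under 0.05, as were 18.7% of all genes, and Btk passed the adjusted threshold, as did 19.8% of all genes.

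DIO-VSG against DIO-HFD addressed surgical weight loss. Surgery and the change to the low-fat diet cannot be told apart in it. The DIO-VSG means were higher for all 8 members, by 1.12 (Blnk) to 2.82 (Cd79a) on the log2 scale, with limma adjusted P values of 0.405 to 0.492. Leaving out single libraries gave 0.63 to 1.68 for Blnk and 1.46 to 3.88 for Cd79a. Over all genes 0% passed the adjusted threshold, and 0 of 8 members, against 13.2% of genes, were below 0.05 without adjustment. The groups overlapped for all 8 members, since DIO-HFD replicate 1 was the highest library of each, while 6.59% of all genes did not overlap. Without that library 7 members were higher and below 0.05 before adjustment, as were 14.3% of all genes, and 0 passed after it. The count was 1 without DIO-HFD replicate 4 (6.76% of all genes) or CON-LFD replicate 2 (5.62%). With library weights the differences shrank to 0.30 (Blnk) to 0.59 (Cd79a).

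DIO-LFD against DIO-HFD addressed dietary weight loss. Here the scale decided the direction. The DIO-LFD arithmetic means were lower, for Cd79a 5098 ± 1431 against 6318 ± 7333, whereas the log2 differences were positive for all 8 members, from 0.13 (Blnk) to 1.58 (Ms4a1). The limma adjusted P values were 0.906 to 0.987, and 0% of all genes passed. Without adjustment 0 of 8 members and 8.53% of genes were below 0.05, and the groups overlapped for all 8 members, as they did for all but 4.51% of genes. Blnk was at -0.37 and Btk at -0.35 without DIO-HFD replicate 3, at -0.24 and -0.18 without DIO-HFD replicate 2, and with library weights all 8 differences were negative, from -0.54 to -0.71. No direction can therefore be given for this comparison.

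DIO-VSG against DIO-LFD set surgical beside dietary weight loss, in mice on the same diet at the end. All 8 members were higher in every DIO-VSG library than in every DIO-LFD library, a pattern that 12.9% of all genes had in this direction. The means of Cd79a were 11772 ± 1330 and 5098 ± 1431, those of Cd79b 8404 ± 438 and 3597 ± 1086, and those of Btk 2183 ± 140 and 1049 ± 246 (SD, n = 4). The log2 differences were close to each other, from 0.99 (Blnk) to 1.29 (Cd79b), with limma adjusted P values of 0.565 to 0.75 in the fit of all 16 libraries, where 0% of genes passed. Before adjustment 9.71% of genes and 0 of 8 members were below 0.05. Fitted on these 2 groups alone, 7 of 8 members passed, with limma adjusted P values of 0.0166 (Btk) to 0.031 (Cd22), and 7.22% of all genes did. Fcer2a did not pass there, at 0.0789.

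DIO-VSG against CON-LFD compared surgical weight loss with mice that had never been obese. Differences were the largest of the 6 comparisons in the fit, up to 4.14 (SE 1.72, interval 0.45 to 7.83) for Ms4a1 and 4.12 (SE 1.57, interval 0.76 to 7.49) for Pax5 on the log2 scale. Leaving out single libraries gave 2.81 to 5.59 for Ms4a1 and 2.65 to 5.52 for Pax5. The limma adjusted P values were 0.268 to 0.356, and 0% of all genes passed. Before adjustment, 7 of 8 members were below 0.05 and higher in DIO-VSG, as were 10.2% of all genes, out of 17.8% in either direction. Blnk, at 1.32 (SE 0.78, interval -0.36 to 2.99), was not among them. Groups were fully separated for Cd79b alone, and for 2.59% of all genes in this direction. That count of 7 moved with single libraries, and so did the share of all genes. It was 0 without CON-LFD replicate 2 (4.39% of all genes), 1 without CON-LFD replicate 4 (4.2%) and 6 without CON-LFD replicate 1 (7.59%). It was 1 without DIO-VSG replicate 1 (4.93%) or replicate 3 (7.29%) and 3 without DIO-VSG replicate 2 (6.65%) or replicate 4 (8.22%). Without CON-LFD replicate 3 it was 8 (17.9%), and Pax5 passed the adjusted threshold at 5.52 (limma adjusted P = 0.0497), as did 4.11% of all genes. With library weights all 8 were higher before adjustment, as were 20% of all genes, and Btk passed after it, as did 19.9%.

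DIO-LFD against CON-LFD gave log2 differences of 0.33 (Blnk) to 2.91 (Ms4a1), with limma adjusted P values of 0.842 to 0.955. The arithmetic mean of Blnk was lower in DIO-LFD, 1457 against 1730 in CON-LFD, so its direction depended on the scale. Here 0.00471% of all genes passed, and without adjustment 0 of 8 members and 6.26% of genes were below 0.05. That count was 5, all higher in DIO-LFD, without CON-LFD replicate 3 (7.6% of all genes higher) and 1 without CON-LFD replicate 1 (2.18%). The groups overlapped for all 8 members, and 3.53% of all genes did not overlap. Blnk and Btk turned negative without CON-LFD replicate 2, at -0.52 and -0.14, while the lowest leave-one-out value of the other members was 0.71. Comparisons that have a group in common are not independent of each other.

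**Figure D2:**
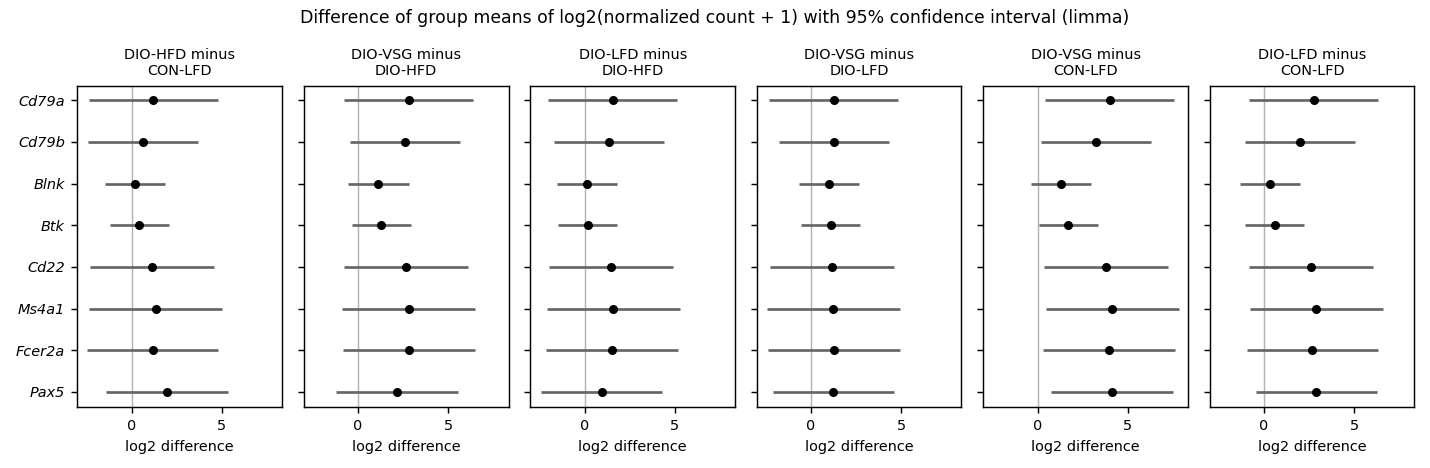
Difference of group means of log2(normalized count + 1) with its 95% confidence interval from limma, for 8 genes in 6 comparisons. Intervals exclude 0 only in DIO-VSG minus CON-LFD, for 7 genes before adjustment, and are narrowest for Blnk and Btk.

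Members were next set against Cd79a within each library, to set the overall amount of B cell RNA aside. Ms4a1 stayed between 0.52 and 0.849 of Cd79a, Fcer2a between 0.359 and 0.709, and Cd22 between 0.958 and 1.65, while Cd79a itself ranged over 389 times. The highest ratio was 1.63 times the lowest for Ms4a1, 1.72 times for Cd22 and 1.97 times for Fcer2a. Both ends of the Fcer2a range lay in DIO-LFD, 0.359 in replicate 1 and 0.709 in replicate 4, a group in which Cd79a itself differed no more than 2.01 times. Pax5 did so in 15 libraries, from 0.757 to 1.11, and reached 5.16 in DIO-HFD replicate 3, where 459 reads of Pax5 stood beside 89 of Cd79a. Antisense genes that share exon bases with Pax5 (5730488B01Rik and Gm12462) had 1 read each in that library. Ighm, the constant chain of IgM, was 12844 there and Ighd, that of IgD, 238. In CON-LFD replicate 4, where the Pax5 ratio was 0.871, Ighm was likewise 14021 and Ighd 485.

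Cd79b, Blnk and Btk left proportion with Cd79a mainly where Cd79a was low. In CON-LFD replicate 4 the ratio was 3.47 for Cd79b, 14.6 for Blnk and 5.42 for Btk, against medians of 0.719, 0.277 and 0.201 over the 16 libraries. Blnk was also above Cd79a in CON-LFD replicate 2 (5.03), DIO-HFD replicate 3 (4.81) and DIO-HFD replicate 2 (1.12). In DIO-LFD and DIO-VSG libraries all ratios were close, from 0.663 to 0.769 for Cd79b, 0.227 to 0.337 for Blnk and 0.173 to 0.229 for Btk. CON-LFD replicate 4 also had the highest summed level of 16 macrophage markers, 163777, against 23597 to 87380 elsewhere. The defining marker Adgre1 was 18530 there, against 569 to 2914 elsewhere. The other markers rose less, as Csf1r did (13668 against at most 11563 elsewhere), or did not peak there, as with Itgax (791 against up to 2024). The part of macrophage RNA in the Blnk, Btk and Cd79b values was not tested.

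**Figure D3:**
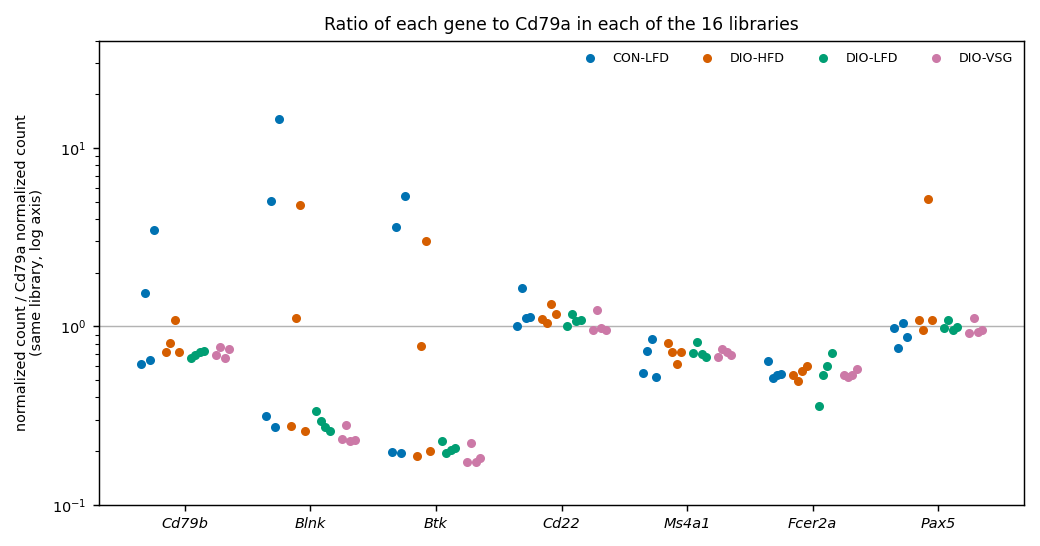
Normalized count of 7 genes divided by that of Cd79a in the same library (log axis), 16 points per gene colored by group. Cd22, Ms4a1 and Fcer2a form the narrowest columns, Blnk reaches 14.6 in a CON-LFD library and Pax5 5.16 in a DIO-HFD library.

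Levels of different genes were compared per kilobase of the longest annotated transcript, as normalized counts per kilobase in DIO-VSG (mean ± SD, n = 4). Cd79a was highest at 8079 ± 913 and Cd79b followed at 5873 ± 306, the chains that pair in the receptor. Cd22 (3032 ± 276) differed from Fcer2a (2837 ± 308), and Fcer2a from Ms4a1 (2707 ± 267), by less than their SD. Pax5 (1435 ± 92.8) and Blnk (1357 ± 114) likewise differed by less than their spread, and Btk was lowest at 859 ± 55.1. The places of Fcer2a and Pax5 depend on the transcript chosen, since with the median transcript length they were at 6839 and 10880.

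The rest of the receptor pathway was followed in lists that hold none of the members. Of 18 signal transduction genes, 0 passed the adjusted threshold in any of the 6 comparisons (limma). All DIO-VSG libraries lay above all DIO-LFD libraries for 16 of them, and for 12.9% of all genes. Syk, the kinase that binds the Cd79 tails, averaged 10910 ± 1723 in DIO-VSG and 5995 ± 1097 in DIO-LFD. Blk, a Src-family kinase of B cells, averaged 2561 ± 260 and 1154 ± 351. Lyn moved less between libraries, at 2421 to 7787 over all 16. Against CON-LFD, 9 of the 18 were below 0.05 without adjustment and higher in DIO-VSG, as were 10.2% of all genes, and 1 was lower, as were 7.55%. The higher share of all genes was 4.39% without CON-LFD replicate 2, and the count of 9 was not recomputed without single libraries.

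Among 11 inhibitory receptors and phosphatases, 0 passed the adjusted threshold in any comparison. DIO-VSG lay fully above DIO-LFD for 8 of them, and for 12.9% of all genes. Ptpn6, the phosphatase SHP-1 that Cd22 recruits, averaged 7771 ± 278 in DIO-VSG and 4015 ± 938 in DIO-LFD. Cd72 averaged 3286 ± 247 and 1633 ± 473. Fcgr2b, the inhibitory IgG receptor that macrophages also carry, overlapped between these groups at 3404 ± 1092 and 3137 ± 709.

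Of 14 transcription factors of the B lineage, 0 passed the adjusted threshold in any comparison. DIO-VSG lay fully above DIO-LFD for 9 (12.9% of all genes) and fully below for 1 (5.83% of all genes). Spib ranged from 29.7 to 7153 and Pou2af1, the B cell coactivator of octamer sites, from 22.3 to 6942. Ebf1 did not follow Pax5: it stood at 7565 to 17816 in all libraries, with means of 10272 ± 1514 in DIO-VSG and 10360 ± 2215 in CON-LFD. Ebf1 is also made by adipocytes and their precursors. Of 6 constant chains of membrane immunoglobulin, 4 had DIO-VSG fully above DIO-LFD (12.9% of all genes) and 0 passed. Ighd averaged 21575 ± 919 in DIO-VSG, 8820 ± 2026 in DIO-LFD and 6791 ± 9383 in CON-LFD, and Ighd in DIO-VSG lay above all CON-LFD libraries too.

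Genes outside the members with the most similar profile were ranked by the root mean square difference of centred log2 values over the 16 libraries, as a description. Nearest to the mean of the 8 were Fcrl1 (0.199), Colq (0.227) and H2-DMb2 (0.234), then Tmem163, Treml2, Siglecg, A430078G23Rik, Spib, Bfsp2 and Fcrla (0.301), against a median of 2.25 over 21210 other genes. Fcmr (0.144) and Cr2 (0.194) were among the 3 genes nearest to Cd79a, and both were also among the 3 nearest to Ms4a1. Cd79b was nearest to H2-DMb2, Spib and Fcrl1, Cd22 to Tnfrsf13c, H2-Ob and Gm42870, and Fcer2a to Cr2, Fcmr and Gm42870. Blnk was nearest to Lrmp (0.119), Vav1 and Tlr9, and Btk to Fgd3 (0.134), Myo1g and Itga4. Pax5 had the most distant neighbors, Cacna1i (0.384), 4930426D05Rik and Gm29439. Of the members, Blnk (1.34) and Btk (1.16) lay farthest from the mean of the 8 and Cd79b (0.291) nearest.

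Markers of other cell types were measured beside the members. All 22 T cell markers had every DIO-VSG library above every DIO-LFD library, as did 11 of 11 further B cell markers and 6 of 10 lymph node stroma genes, with 1 of the 10 fully below. Over all genes, 12.9% were fully above and 5.83% fully below. Summed T cell markers were 2701 to 67068 in CON-LFD, 2559 to 100299 in DIO-HFD, 18517 to 38852 in DIO-LFD and 58713 to 95743 in DIO-VSG. Summed lymph node stroma genes were 4172 to 53067, 4920 to 66787, 22078 to 28929 and 42490 to 55678 in the same order, and the homing chemokine Ccl21a ranged from 135 to 37665. These sums put the same 4 libraries lowest as most members did. The part of lymph node tissue in the members' differences was not tested.

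The B cell genes did not follow the T cells exactly. The ratio of Cd79a to Cd3e, a chain of the T cell receptor complex, ran from 0.289 in CON-LFD replicate 2 to 6.11 in DIO-LFD replicate 2. It was 2.62 to 4.13 in DIO-VSG and 2.86 to 6.11 in DIO-LFD, which overlap. Of 6 germinal centre genes 0 were fully apart between DIO-VSG and DIO-LFD, and of 6 plasma cell genes 1 was fully higher in DIO-VSG. Over all genes 12.9% were fully higher and 5.83% fully lower, so both counts are near those shares. Jchain, a plasma cell gene, overlapped at 3971 ± 1903 in DIO-VSG and 1890 ± 1011 in DIO-LFD.

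Among the non-lymphoid lists, DIO-VSG lay fully above DIO-LFD for 0 of 16 macrophage, 0 of 8 mast cell and 0 of 10 adipocyte genes. The count was also 0 of 5 for mammary epithelium and 0 of 5 for erythroid genes, and 5 of 6 for dendritic cell genes. Over all genes 12.9% had this pattern, so a count of 0 in the lists of 5 to 10 genes is near that share. A single gene was fully below in each of 3 of these lists, which is near the 5.83% of all genes that were. Named after their values were seen, these were Cd14 (882 to 1053 against 1079 to 1978) among macrophage, Kit (3869 to 4136 against 4998 to 7616) among mast cell and Plin1 (39525 to 69399 against 69689 to 87448) among adipocyte genes. DIO-HFD replicate 1, the library with the most of every member, had the lowest summed adipocyte level, 442491 against 671084 to 1720121 elsewhere. DIO-LFD replicate 1, the lowest DIO-LFD library for all 8 members, had a summed erythroid level of 461510, against 18104 to 55718 elsewhere, and the part of blood in its values was not tested.

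**Figure D4:**
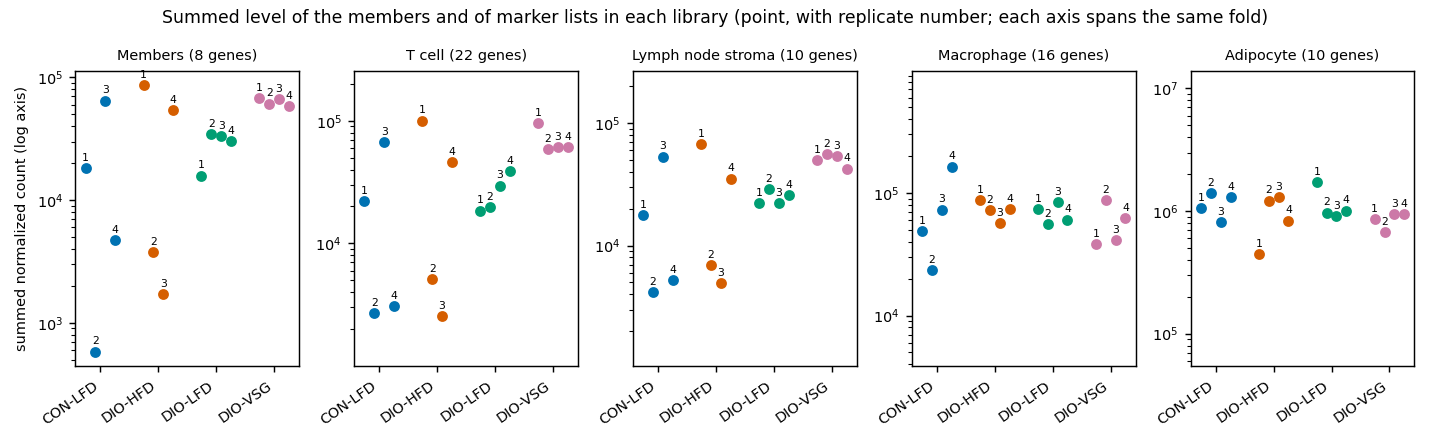
Summed normalized count (log axis, same fold span in each panel) of the 8 members and of 4 marker lists per library, with replicate numbers. The members run from 582 to 86859, T cell and lymph node stroma sums place the libraries in much the same order, and macrophage and adipocyte sums do not.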

How the data were processed

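The deposited file held log2 values of the authors' variance-stabilizing transformation (lowest 5.36, highest 21.85). The submitters' processing notes name TopHat2 2.0.7 and HTSeq 0.5.3p9, whereas the study's methods name STAR and salmon with a Gencode annotation. Both give the mm10 genome, and the authors normalized the counts with DESeq2. The transformation was inverted to normalized counts, and 100.0% of these were whole reads (within 0.01 read) once divided by the smallest step of their library. Columns were matched to samples by animal number, so libraries are separate mice, and 0 columns were left over. The labels give no batch. Values of log2(normalized count + 1) were tested with limma-trend, two-sided, in 1 fit of 16 libraries with group as the only term (R 4.3.3 with limma 3.58.1). The fit covered 21218 genes with at least 10 normalized counts in 4 or more libraries, with Benjamini-Hochberg adjustment within each comparison, and was tested on simulated data of DIO-VSG against DIO-HFD (20369 genes, 1 dispersion for all of them, not the members' own spread), where it recovered 97% of 100 genes changed by 2 on the log2 scale and 14% of 100 changed by 1. Fold changes on this scale understate those of low genes. Alternatives were another pseudocount, no filter, the deposited values, 2 other scalings, limma-voom, 2 groups alone, library weights, a replicate block and leaving out each library. Gene positions came from GENCODE M21 on GRCm38. The design assumed normalized counts in the file. Replicates of a group differed by at least 72.7 in chi-square per gene, so all 16 were counted. The members and gene lists were chosen with earlier results of these data known. The text names all 8 members, genes of the lists chosen by name, and the genes with the nearest profiles (10 for the mean of the members, 3 for each member), except those not reported here.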

Additional observations from a re-analysis of the deposited data

Results flagged for a closer look

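In 5 of 32 sets of 4 libraries, the gap between the lowest library and its nearest neighbor on the log2 scale was flagged. As a share of the whole range, it was above Dixon's critical value. Chance alone gives this in about 1 in 20 sets. In DIO-LFD, replicate 1 was far below the rest for Cd79a (2998, next 5380), Cd79b (1987, next 3917), Btk (686, next 1112) and Fcer2a (1078, next 3184). These are the same library, and the members move together, so they are not 4 separate events. In DIO-VSG, replicate 4 was flagged as lowest for Cd22 (10416, next 12483). That gap is large only beside a small range, since the highest value of the group was 1.23 times the lowest.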

How the results depend on the processing

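Of 1248 values of a member under an alternative (26 alternatives for each), 1212 kept both their direction and their side of the adjusted threshold. The count of members past that threshold moved from 0 in 4 cases. It was 7 for DIO-VSG against DIO-LFD with the 2 groups alone, where the wide spread of the other groups is left out, and 1 (Btk) with library weights for DIO-HFD against CON-LFD (1.41, limma adjusted P = 0.0383) and for DIO-VSG against CON-LFD (1.73, limma adjusted P = 0.0284). It ranged from 0 to 1 over leaving out each library for DIO-VSG against CON-LFD and was 0 throughout for the others. With weights, DIO-HFD replicate 4 counted 10.9, and the log2 differences of DIO-LFD against DIO-HFD turned negative: Cd79a -0.54, Cd79b -0.58, Blnk -0.59, Btk -0.64, Cd22 -0.64, Ms4a1 -0.55, Fcer2a -0.56 and Pax5 -0.71. The cause was not tested.

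Leaving out a library turned the sign in DIO-HFD against CON-LFD, whose ranges were -0.19 to 2.56 for Cd79a, -0.63 to 1.87 for Cd79b, -0.64 to 0.69 for Blnk, -0.32 to 1.00 for Btk, -0.10 to 2.44 for Cd22, -0.00018 to 2.79 for Ms4a1 and -0.26 to 2.51 for Fcer2a. For DIO-LFD against DIO-HFD the ranges were -0.37 to 0.69 for Blnk and -0.35 to 0.74 for Btk, and for DIO-LFD against CON-LFD -0.52 to 0.81 and -0.14 to 1.19. Scaling to total reads shifted the median log2 difference of all genes by 0.14 in DIO-HFD against CON-LFD and 0.11 in DIO-VSG against CON-LFD and changed no direction of a member. A replicate block called 0 members in each of the 6 comparisons and changed no adjusted call of a member, while over all genes the share passing in DIO-HFD against CON-LFD went from 0.0377% to 0.00471% and in DIO-LFD against CON-LFD from 0.00471% to 0%. The replicate numbers were not taken as pairs. Of 24 same-numbered pairs, 9 had a correlation of deviations above 0.1 (range -0.609 to 0.534), and 7 of 16 libraries correlated best with their own number. Pairs of different numbers were not set beside these, so the values do not decide whether the numbers pair libraries. Depth was not short for the members, whose lowest value was 19 reads.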
